A study of Sus scrofa with 30 samples.

Results

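The miR-181 family was represented in the porcine endometrium by 11 of the 873 small RNA sequences that the study annotated as miRNAs and length variants of miRNAs (isomiRs). These were the annotated sequences named for mir-181a, mir-181b, mir-181c or mir-181d, whatever their arm, copy number or species prefix, and each was counted by exact match of the whole read. The 11 sequences belonged to 5 mature miRNAs, and none of the 11 passed the F-test of edgeR for a difference between groups in any of 9 comparisons, whereas the likelihood ratio test of edgeR and DESeq2 each called 2 of them, miR-181a 5p of 22 nt and miR-181a-1 3p of 20 nt, in comparisons in which they called between 5.27% and 15% of all sequences. Small RNA was sequenced in 30 libraries, each from the endometrium of a different animal, of which 16 were pregnant (P) and 14 cyclic (C). The animals were crossbred gilts (Hampshire x Duroc) from the same commercial herd, 7 to 8 months old, and pregnant gilts had been inseminated at the third estrus. Samples were taken on days (D) 12, 16 and 20, which gave the groups PD12 (n = 5), PD16 (n = 5), PD20 (n = 6), CD12 (n = 4), CD16 (n = 5) and CD20 (n = 5). No treatment or genetic change was used. On PD12 and PD16 the conceptuses were flushed from the uterus. On PD20 the endometrium was taken at implantation sites, once the embryos and trophoblast had been taken off, so sampling differed between PD20 and the other groups.

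A miRNA gene is transcribed into a hairpin, and Dicer cuts a short duplex from it, of which either the 5p or the 3p arm can be loaded into an Argonaute protein. Bases 2 to 8 of the loaded strand, the seed, pair with target messenger RNAs, and miRNAs that share a seed are grouped as a family. The miR-181 family is best known from lymphocytes, where miR-181a sets the sensitivity of T cell receptor signalling during thymic development. Its 5p strands are usually described as the guide strands. In pigs, as in other mammals, its genes lie in clusters. By the order of genes in RefSeq (assembly Sscrofa11.1, used for names and order only), MIR181A-1 neighbours MIR181B-1, MIR181A-2 neighbours MIR181B-2, and MIR181D neighbours MIR181C, which in turn neighbours MIR23A.

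The sequences below show the 2 seeds of the family and the few bases that tell its members apart, with the seed in capitals, as the DNA letters of the reads, 5′ to 3′. For each mature miRNA the annotated form with the most reads is printed, and for miR-181d also the form that carries its mature miRNA name.
miR-181a 5p, 23 nt: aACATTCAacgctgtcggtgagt
miR-181b 5p, 23 nt: aACATTCAttgctgtcggtgggt
miR-181d 5p, 23 nt: aACATTCAttgttgtcggtgggt
miR-181d 5p, 24 nt: aACATTCAttgttgtcggtgggtt
miR-181a-1 3p, 22 nt: aCCATCGAccgttgattgtacc
miR-181c 3p, 22 nt: aCCATCGAccgttgagtggacc
All 6 members of the 5p arm carried the seed ACATTCA, and all 5 members of the 3p arm carried the seed CCATCGA. Over their first 17 bases, counted from 1 at the 5′ end, miR-181b differed from miR-181a 5p by A9T and C10T, miR-181d from miR-181b by C12T alone, and miR-181c 3p from miR-181a-1 3p by T16G alone. The first 17 bases, called the start below, therefore separated the 5 mature miRNAs. A read of the miR-181a or miR-181b 5p strand fits the hairpins of both gene copies, whereas the annotated miR-181a 3p reads were named for mir-181a-1 only. No member was named for the 5p strand of miR-181c, the 3p strand of miR-181b or the 3p strand of miR-181a-2, and these strands were not analysed here.

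The other 5 annotated forms were 3′ length variants of the same strands. miR-181a 5p also occurred at 22 nt, miR-181d at 21 nt, miR-181c 3p at 21 nt, and miR-181a-1 3p at 20 and 21 nt, which together with the forms printed above makes 11. None differed from its longest form at the 5′ end, so no member had a shifted seed.

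The family was a minor part of the endometrial small RNA. A library held between 2029729 and 6402731 reads (median 3111079), and the 873 annotated sequences took 79.1% of all 97398404 reads. The 11 members together had 10543 reads, between 137 and 756 per library (median 311). This was between 0.00510% and 0.0326% of the annotated reads of a library (median 0.0125%). All members were read in all 30 libraries except the 24 nt form of miR-181d, which was read in 29 and had 0 reads in the remaining PD20 library, where 0 reads allow up to 3 by the usual one-sided limit.

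Counts of a single form were low, from a median of 8 reads per library for miR-181d of 24 nt to 86.5 for miR-181a-1 3p of 22 nt, and this limited the precision of each value. The lowest count of miR-181a-1 3p of 22 nt, 13 reads, has an exact two-sided Poisson interval of 6.92 to 22.2 reads at 95%, and the lowest count of miR-181d of 23 nt, 2 reads, has one of 0.242 to 7.22. These intervals cover counting error only, since the reads carried no molecular identifiers and copies of 1 molecule cannot be told from each other.

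Levels below are normalized reads, that is, counts per 1000000 reads (CPM) with the library sizes adjusted by the TMM factors of edgeR, which set aside the most extreme sequences. Each read is a whole small RNA, so no correction for length is needed, although adapter ligation favours some ends over others and was not corrected. In bulk tissue a lower level can mean fewer cells of a type or less RNA per cell, and these cannot be told apart. The scales of members and starts are kept apart: members are scaled to the reads of the 873 annotated sequences, and starts, which gather every deposited read with the same first 17 bases whether annotated or not, are scaled to the reads of all 324 starts.

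A pair of libraries stood apart. PD20 replicate 1 had 636000 normalized reads of the 31 miR-143 and miR-145 sequences, taken as markers of smooth muscle and stroma, whereas the other PD20 libraries had between 76379 and 138140. It also had 40186 normalized reads of the muscle list (miR-1, miR-206 and miR-499), against 1416 to 8098 in the others. CD16 replicate 5 had the highest level of both miR-181a 5p forms in the series, with 67.4 normalized reads of the 23 nt form and 62.6 of the 22 nt form. It too was high for the muscle list, with 16765 normalized reads against 2035 to 3392 in the other CD16 libraries, a level passed in the series by PD20 replicate 1 alone, and its leukocyte list, at 71.0, was the lowest of the series. The part of these markers in its miR-181a 5p level was not tested. The highest Pearson r between any pair of libraries, on log2 normalized reads, was 0.980.

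The most abundant member was on the 3p arm. miR-181a-1 3p of 22 nt had a mean of 41.6 normalized reads over the 30 libraries and ranked 303 of the 873 annotated sequences. The 23 nt form of miR-181a 5p followed with 26.4 (rank 363), then miR-181c 3p of 22 nt with 12.9 (rank 498). miR-181b had 9.40 normalized reads (rank 561) and the 23 nt form of miR-181d 7.67 (rank 620). The lowest were the 24 nt and 21 nt forms of miR-181d with 3.42 and 3.31 normalized reads (ranks 833 and 837). Together the 3p members held 57.2% of the family's reads, with a range from 24.0% to 75.0% over the libraries, and the 5p members 42.8%.

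The 3p majority rested on which forms had been annotated. Of the 18795 reads that began with a family start, 56.1% lay on the 11 annotated forms. With all of these reads counted, the 3p strands held 43.2%. On the scale of starts, miR-181a-1 3p still led with a mean of 61.2 normalized reads (rank 135 of 324), but miR-181a 5p was close to it with 53.1. miR-181b had 37.3 (rank 158), miR-181c 3p 27.8 (rank 178) and miR-181d 27.2. Annotated forms made up 82.7% of the reads of miR-181a-1 3p but only 21.4% of those of miR-181b.

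The unannotated reads of the 5p strands differed from the annotated forms in length or in their last bases. Each read was compared with the longest annotated form of its start, and the bases after the point where it departed were classed. For miR-181b, 27.8% of reads departed with A only, between 8.52% and 42.6% over the libraries, and for miR-181d 28.5% did so. For miR-181a 5p the figure was 14.3%, with a further 7.92% that departed with C only. Reads that kept the annotated bases but were shorter or longer than the longest annotated form were frequent as well. For miR-181b 20.6% were shorter and 17.1% longer, more together than the share that departed with A, and for miR-181a 5p 6.84% were shorter and 12.6% longer. For miR-181d these shares were 5.52% and 6.08%. On the 3p strands T was more frequent than A. miR-181c 3p departed with T only in 19.7% of reads and with A only in 12.5%, and miR-181a-1 3p in 8.43% and 3.28%. The T shares of the 2 arms cannot be compared, since the longest annotated 5p forms end in T themselves. A T at that place was classed as annotated, and a further T after it as longer. The form with a further T had 273 reads (5.66%) for miR-181a 5p and 251 reads (7.43%) for miR-181b. The most frequent unannotated form of each miRNA is printed to show these ends, with the bases that depart from the annotated form in capitals.
miR-181a 5p: aacattcaacgctgtcggtgagA
miR-181b 5p: aacattcattgctgtcggtgggA
miR-181d 5p: aacattcattgttgtcggtgggA
miR-181c 3p: accatcgaccgttgagtggacT
miR-181a-1 3p: accatcgaccgttgattgtacT
These forms had 586, 539, 337, 487 and 388 reads in the order printed, and each was read in all 30 libraries. For miR-181b the form ending in A, with 539 reads, stood beside 722 reads of its only annotated form. By group, the share of miR-181a 5p reads that departed with A was 21.4% ± 3.30 on PD20, 17.9% ± 5.53 on CD16, 11.5% ± 2.03 on PD12, 11.5% ± 3.65 on PD16, 9.40% ± 4.42 on CD20 and 6.34% ± 4.18 on CD12 (mean of animals ± SD). For miR-181d it was highest on PD20 too, at 38.8% ± 11.04, against 24.4% ± 7.08 to 30.3% ± 9.02 in the other groups. For miR-181c 3p it was 19.1% ± 7.64 on PD20, against 7.75% ± 4.81 to 13.7% ± 3.62. The share of miR-181b was close on PD20 (31.2% ± 8.20) and PD12 (30.2% ± 6.36), and that of miR-181a-1 3p was highest on CD20 (6.56% ± 2.66, against 5.47% ± 3.30 on PD20). These shares were looked at after the fact and no difference between groups was tested. Whether a departing base was added to the RNA or came from a gene copy or a sequencing error was not tested, and no hairpin sequence was used here.

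**Figure D1:**
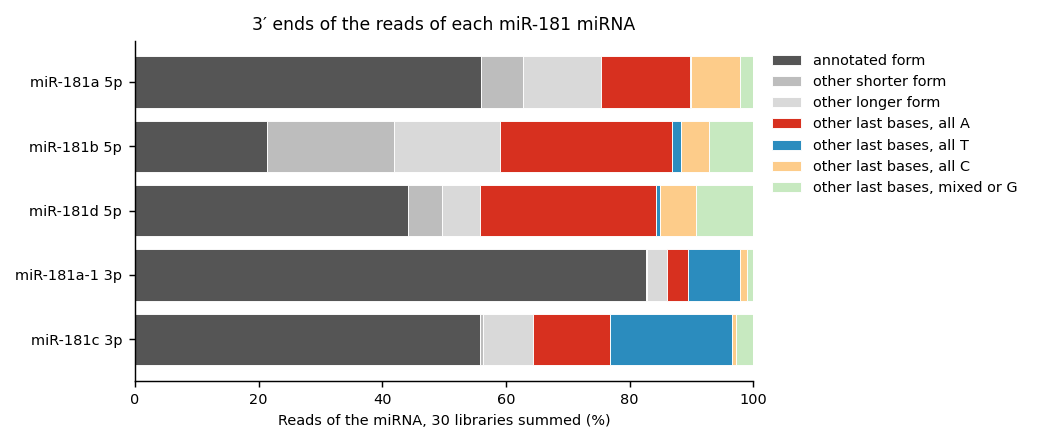
3′ ends of the reads of each miR-181 miRNA, as a percentage of the reads that share its 17-base start, summed over 30 libraries (horizontal axis, %). Dark grey marks the annotated forms, which range from 21.4% for miR-181b to 82.7% for miR-181a-1 3p, red marks reads that depart with A only and blue those that depart with T only, the latter seen mainly on the 3p strands.

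The 5′ ends, which set the seed, varied little on the 5p arm. Among reads that held bases 3 to 17 of a start and began no more than 2 bases to either side of its first base, 99.9% of miR-181a 5p, 98.4% of miR-181b and 99.6% of miR-181d began at the annotated position. miR-181c 3p did so in 90.7%, and 9.16% of its reads had 1 extra base at the 5′ end. The corresponding values for miR-181a-1 3p were 95.8% and 3.71%. An extra base at this end moves the seed by 1 position.

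The level of each miRNA in the 6 groups was taken from the starts, which give the most reads per feature. miR-181a 5p was highest on CD16 at 66.8 ± 70.7 normalized reads (mean ± SD, n as above) and on PD16 at 66.5 ± 24.4, followed by PD20 (49.9 ± 22.02), PD12 (49.5 ± 28.4), CD20 (44.4 ± 10.8) and CD12 (39.4 ± 20.4). The large SD on CD16 came from replicate 5, which had 192.0 normalized reads, whereas the other 4 CD16 animals had between 23.2 and 45.2. miR-181b had the same leading groups, CD16 (44.6 ± 19.3) and PD16 (41.2 ± 5.08), then PD20 (39.5 ± 6.35), PD12 (32.7 ± 11.2), CD12 (32.1 ± 7.88) and CD20 (32.1 ± 4.37). miR-181d, which lies beside miR-181c in the genome, was highest on PD12 (32.4 ± 9.96) and lowest on PD20 (20.8 ± 4.86), with CD16 (30.4 ± 9.20), PD16 (29.7 ± 11.8), CD12 (28.3 ± 11.8) and CD20 (22.9 ± 4.02) between.

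The 3p strands had their own order of groups. miR-181c 3p was highest on CD16 (35.6 ± 11.4), then PD12 (32.9 ± 12.0), PD16 (32.1 ± 8.30), CD12 (23.9 ± 12.9), CD20 (23.5 ± 9.29) and PD20 (19.8 ± 3.47). miR-181a-1 3p was highest on CD16 (80.9 ± 30.4), then PD20 (75.0 ± 14.7), PD16 (66.2 ± 29.7), PD12 (63.9 ± 32.3), CD12 (38.4 ± 23.3) and CD20 (35.4 ± 19.03). For all 5 miRNAs, every pair of neighbouring groups in these orders overlapped in their animals, and no gap between neighbouring means exceeded the larger of the SDs. The plot of levels shows the animals of each group.

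**Figure D2:**
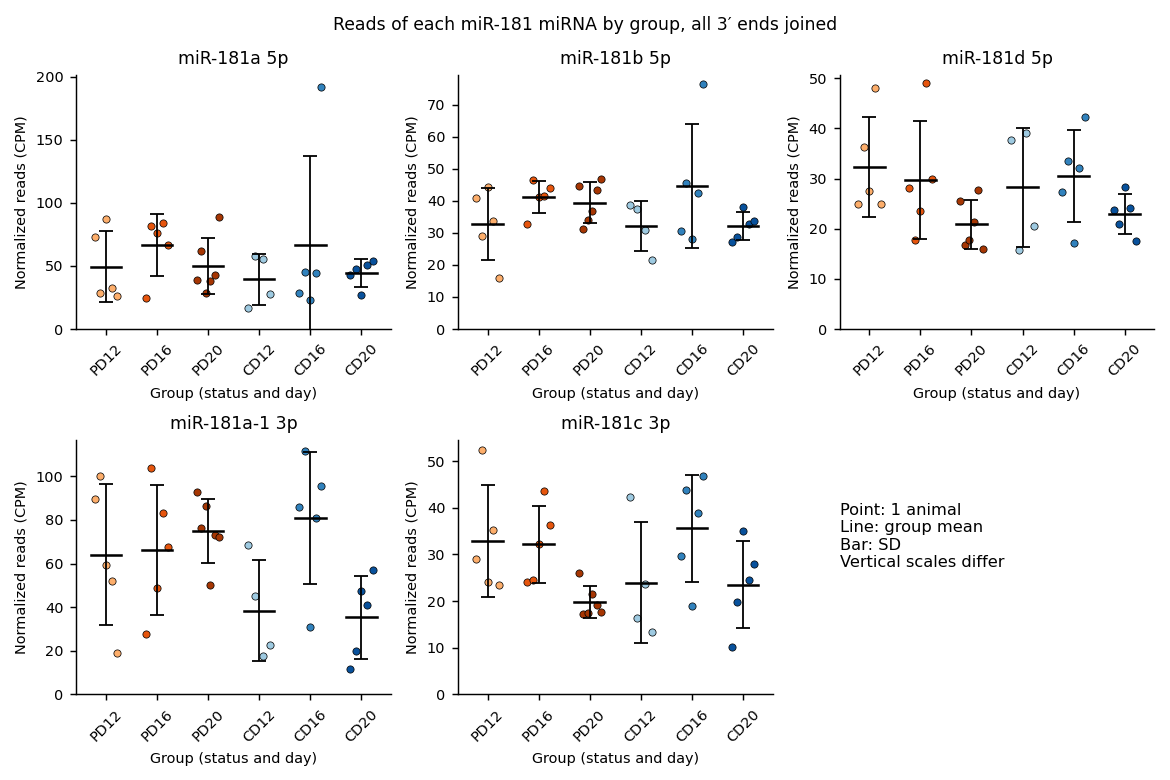
Normalized reads (vertical axis, CPM on the scale of starts) of each miR-181 miRNA with all its 3′ ends joined, in the 6 groups of status and day (horizontal axis). Points are animals, lines group means and bars SD, cut at 0, and the vertical scales differ. One CD16 animal stands at 192.0 for miR-181a 5p, and the points of all neighbouring groups overlap.

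Differences between days were tested within pregnancy and within the cycle, and between P and C on each day, with a quasi-likelihood F-test in edgeR. For each status 1 joint test asked whether D16 or D20 departed from D12. A call needed both an adjusted p (Benjamini-Hochberg, over all 873 sequences) under 0.05 and a log2 fold change (log2FC) above 1 or below -1. None of the 11 members was called in any comparison. In the whole series calls were also rare, 0.229% of sequences for PD16 vs PD12, 0.802% for PD20 vs PD12, 0.573% for PD20 vs PD16, 0.115% for CD16 vs CD12, 0.458% for CD20 vs CD12 and 0.458% for CD20 vs CD16. For P vs C they were 0% on D12, 0% on D16 and 1.49% on D20. None of the 5 starts was called either. The shares of all starts called were 0.309% in each of the 3 comparisons of pregnancy days, 1.23% for CD16 vs CD12, 1.54% for CD20 vs CD12, 4.32% for CD20 vs CD16, and 0%, 0% and 5.56% for P vs C on D12, D16 and D20. At an unadjusted p under 0.05 members did pass, as given below for each comparison. The comparisons share groups, so they are not independent.

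The direction of the 11 log2FC values is given beside that of all 873 sequences. Of the members, 6 had a positive log2FC on PD16 vs PD12 (53.3% of all sequences), 3 on PD20 vs PD12 (49.3%) and 2 on PD20 vs PD16 (45.5%). For CD16 vs CD12 it was 10 members (50.7% of all sequences), for CD20 vs CD12 it was 3 (54.2%), and CD20 compared with CD16 gave 1 (48.8%). For P vs C it was 10 on D12 (52.5%), 5 on D16 (51.2%) and 5 on D20 (48.6%). With all deposited reads as the library size the count turned for CD20 vs CD12, where 10 of 11 members were positive (71.2% of all sequences), and for PD16 vs CD16, where 7 were positive (58.6%), and stayed on its side of the middle in the others. The count also moved with single libraries. For CD16 vs CD12 it was 6 without CD16 replicate 5, and for CD20 vs CD12 it was 8 without CD12 replicate 1 and 6 without CD20 replicate 1. With each library left out in turn it ranged from 4 to 8 for PD16 vs PD12, and from 4 to 7 for both PD16 vs CD16 and PD20 vs CD20, so that these counts lay on either side of the middle. It stayed between 2 and 4 for PD20 vs PD12 and PD20 vs PD16, between 1 and 2 for CD20 vs CD16 and between 9 and 10 for PD12 vs CD12. On D20 vs D16, 9 members in P and 10 in C had a negative log2FC, and 9 in each with all deposited reads as the library size. Length forms of a strand come from the same hairpins and are not independent of each other.

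Within pregnancy the members with the lowest p values came from 3 of the 5 miRNAs. At an unadjusted p under 0.05, 3 of the 11 members and 18.7% of all sequences passed the joint test of pregnancy, and 2 of the 11 members and 14.2% of all sequences passed for PD20 vs PD16. The members were miR-181d of 23 nt, miR-181c 3p of 22 nt and miR-181a-1 3p of 20 nt, and the first 2 of these also passed for PD20 vs PD16. For miR-181d of 23 nt the PD12 animals had 5.94, 13.1, 6.93, 12.2 and 6.41 normalized reads, the PD16 animals 6.83, 4.72, 6.19, 23.1 and 13.8, and the PD20 animals between 2.49 and 5.69 (median 4.16). All PD20 animals lay below all PD12 animals, and the PD16 group spanned both. Of all sequences, 3.32% had groups that do not overlap, in either direction, between PD20 and PD12. Its log2FC was -1.07 (SE 0.423) on PD20 vs PD12 and -1.39 (SE 0.424) on PD20 vs PD16, with adjusted p values of 0.147 and 0.153 in edgeR's F-test. With all its 3′ ends joined, miR-181d had a log2FC of -0.63 (95% interval -1.23 to -0.03) on PD20 vs PD12, and it was not called. Its adjusted p in the joint test of pregnancy was 0.330 by the likelihood ratio test of edgeR and 0.317 by DESeq2.

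miR-181c 3p followed the same order of days. Its 22 nt form had 10.9, 26.1, 9.70, 13.9 and 9.94 normalized reads on PD12, 8.34, 11.2, 15.5, 30.2 and 13.8 on PD16, and between 2.91 and 13.3 (median 7.54) on PD20. The groups overlapped through the PD20 animal at 13.3, which was replicate 1, the library rich in miR-143. The log2FC was -0.91 (SE 0.415) on PD20 vs PD12 and -1.11 (SE 0.417) on PD20 vs PD16, with edgeR adjusted p values of 0.244 and 0.260. Without replicate 1 these log2FC values were -1.18 and -1.38 (edgeR adjusted p = 0.157 and 0.169). As a start, miR-181c 3p had a log2FC of -0.73 (95% interval -1.28 to -0.17, adjusted p = 0.221 in edgeR's F-test) on PD20 vs PD12 and -0.70 (-1.25 to -0.14, adjusted p = 0.269) on PD20 vs PD16. Neither passed the threshold. miR-181c and miR-181d come from neighbouring genes, and the other miRNAs whose genes lie there in mammals (miR-23a, miR-27a and miR-24, 21 annotated sequences) had 0 calls in pregnancy, 5 sequences with an unadjusted p under 0.05 in the joint test, against 18.7% of all sequences, and a median log2FC of 0.77 on PD20 vs PD12, against -0.01 over all sequences. The paper shows a sequence that fits both the miR-23a and miR-23b hairpins, and another that fits those of miR-27a and miR-27b. miR-24 was matched here in any gene copy, so the reads of this list need not all come from beside miR-181c. The 21 sequences had 2 calls on PD20 vs CD20, 1 higher and 1 lower, where 1.49% of all sequences were called. On CD20 vs CD16, 7 of the 21 had an unadjusted p under 0.05, all higher on CD20, against 21.2% of all sequences, with a median log2FC of 0.59. On PD16 vs CD16, 7 of the 21 passed as well, all higher on PD16, against 10.9% of all sequences, with a median log2FC of 0.49. In the joint test of the cycle 8 of the 21 passed, against 23.9% of all sequences, 7 higher and 1 lower on CD20 than on CD12.

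The most abundant members of both arms overlapped on all days of pregnancy. miR-181a-1 3p of 22 nt had 64.4, 84.9, 56.8, 36.3 and 10.9 normalized reads on PD12, 19.7, 45.4, 45.4, 71.5 and 46.2 on PD16, and between 23.2 and 78.9 (median 34.7) on PD20. miR-181a 5p of 23 nt had 43.2, 15.8, 52.7, 14.2 and 14.4 on PD12, 13.3, 44.2, 41.3, 43.9 and 40.0 on PD16, and between 11.2 and 34.4 (median 19.4) on PD20. In miR-181a 5p, 4 of the 5 PD16 animals lay between 40.0 and 44.2, above all PD20 animals. The log2FC on PD20 vs PD16 was -0.19 (SE 0.436) for miR-181a-1 3p of 22 nt and -0.82 (SE 0.413) for miR-181a 5p of 23 nt, with edgeR adjusted p values of 0.870 and 0.371. Without PD20 replicate 1 these log2FC values were -0.51 and -0.81.

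miR-181b, which differs from miR-181d by 1 base in its start, overlapped on all days too. Its annotated form had 16.6, 7.56, 8.78, 7.80 and 5.77 normalized reads on PD12, 10.998, 10.6, 11.4, 11.2 and 16.7 on PD16, and between 4.57 and 13.6 (median 6.38) on PD20. The PD16 animals were the most alike, apart from replicate 5 at 16.7. Its log2FC on PD20 vs PD16 was -0.73 (SE 0.351, edgeR adjusted p = 0.350), whereas with all 3′ ends joined it was -0.06 (95% interval -0.59 to 0.47).

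The shortest form of miR-181a-1 3p, of 20 nt, lacks the last 2 bases of the main form and had the largest positive log2FC of the members within pregnancy. It had 7.82, 8.93, 2.31, 2.03 and 4.49 normalized reads on PD12, 4.17, 45.4, 2.06, 14.9 and 18.1 on PD16, and between 6.71 and 27.01 (median 17.8) on PD20. The PD20 animals were mostly above those of PD12 but the groups overlapped, and the PD16 animals ran from the level of the lowest PD12 animal to the highest value of the series. The log2FC was 1.76 (SE 0.646) on PD16 vs PD12 and 1.73 (SE 0.625) on PD20 vs PD12, with an adjusted p of 0.214 in the joint test of edgeR. Without PD16 replicate 2, the animal at 45.4, the log2FC on PD16 vs PD12 was 0.96.

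Within the estrous cycle, 2 of the 11 members had an unadjusted p under 0.05 in the joint test, against 23.9% of all sequences, namely miR-181a 5p of 22 nt and miR-181a-1 3p of 22 nt. The same 2 members passed for CD20 vs CD16, against 21.2% of all sequences. The 22 nt form of miR-181a 5p, which lacks the last base of the main form, had 3.29, 2.56, 3.35 and 2.06 normalized reads on CD12, 5.92, 6.66, 0.944, 10.2 and 62.6 on CD16, and 4.92, 4.23, 7.45, 8.91 and 4.76 on CD20. All CD20 animals lay above all CD12 animals, and for this pair 4.47% of all sequences had groups that do not overlap, in either direction. CD16 ranged from the lowest to the highest value of the series. The log2FC was 2.70 (SE 0.808) on CD16 vs CD12 and 1.08 (SE 0.799) on CD20 vs CD12, with an adjusted p of 0.121 in edgeR's joint test, and -1.62 (SE 0.699, adjusted p = 0.187) on CD20 vs CD16. Without CD16 replicate 5 the first of these was 1.06 and the last -0.01. The likelihood ratio test of edgeR and DESeq2 each called this form in the joint test of the cycle, with adjusted p values of 0.0315 and 0.0289 that belong to both pairs of days together and not to either alone. With the limit on the log2FC of each pair, they called 5.27% and 5.84% of all sequences on CD16 vs CD12 and 5.73% and 6.41% on CD20 vs CD12.

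The 23 nt form of miR-181a 5p did not separate the days of the cycle. It had 6.03, 34.9, 26.3 and 14.015 normalized reads on CD12, 11.3, 24.4, 12.3, 15.8 and 67.4 on CD16, and 24.6, 30.3, 9.31, 30.1 and 36.2 on CD20. Its log2FC was 0.45 (SE 0.577) on CD16 vs CD12 and 0.34 (SE 0.577) on CD20 vs CD12, with an edgeR adjusted p of 0.815. Without CD16 replicate 5 the first of these turned to -0.37 (SE 0.527). With all ends joined, miR-181a 5p had a log2FC of 0.84 on CD16 vs CD12, which was -0.17 without CD16 replicate 5.

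miR-181a-1 3p had its highest mean of the cycle on CD16. The 22 nt form had 44.4, 31.5, 9.09 and 22.3 normalized reads on CD12, 65.6, 78.8, 19.8, 56.6 and 83.0 on CD16, and 4.92, 15.2, 33.98, 21.7 and 40.5 on CD20. Of the CD16 animals, 4 lay above all CD12 and CD20 animals, and the remaining CD16 animal lay within them. The log2FC was 1.26 (SE 0.566) on CD16 vs CD12, -0.23 (SE 0.554) on CD20 vs CD12 and -1.49 (SE 0.530) on CD20 vs CD16, with edgeR adjusted p values of 0.143 for the joint test and 0.116 for CD20 vs CD16. The start gave 1.11 (95% interval 0.03 to 2.19, adjusted p = 0.159 in edgeR's joint test) and, for CD20 vs CD16, -1.27 (-2.28 to -0.26, adjusted p = 0.112). Neither passed the threshold.

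The remaining miRNAs overlapped on all days of the cycle. miR-181b had 7.12, 15.1, 11.001 and 6.18 normalized reads on CD12, 7.80, 10.7, 6.61, 10.7 and 14.8 on CD16, and 7.95, 9.52, 6.05, 7.24 and 8.57 on CD20. miR-181d of 23 nt had 9.86, 5.89, 8.61 and 3.71 on CD12, 8.88, 9.24, 0.944, 9.27 and 17.5 on CD16, and 4.17, 5.29, 6.98, 10.6 and 4.76 on CD20. miR-181c 3p of 22 nt had 22.5, 7.69, 15.3 and 8.24 on CD12, 13.99, 15.2, 6.61, 16.2 and 26.7 on CD16, and 3.03, 9.52, 19.6, 12.8 and 16.2 on CD20. CD16 replicate 5 had the highest value of its group in all of these, and CD16 replicate 3 the lowest. The log2FC on CD20 vs CD16 was -0.45 (SE 0.394) for miR-181b, -0.64 (SE 0.532) for miR-181d of 23 nt and -0.47 (SE 0.491) for miR-181c 3p of 22 nt. The edgeR adjusted p values were 0.522, 0.507 and 0.606.

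The other 4 members had no edgeR adjusted p under 0.05 in any of the 9 comparisons. Over the 30 libraries, miR-181d of 21 nt lay between 0.962 and 6.18 normalized reads, miR-181d of 24 nt between 0 and 6.78, miR-181c 3p of 21 nt between 2.06 and 12.4, and miR-181a-1 3p of 21 nt between 2.06 and 18.9. Among these, miR-181d of 24 nt had the log2FC farthest from 0, -1.29 (SE 0.616) on PD20 vs PD12, with an edgeR adjusted p of 0.347 in the joint test of pregnancy and an unadjusted p of 0.0487 for this pair of days alone (adjusted p = 0.240). In this comparison 15 reads in PD20 replicate 1 stood against 0 to 4 in the other PD20 libraries. The authors kept a sequence only if it reached a read minimum in most samples of a group. For miR-181d of 24 nt only PD12 did so, with 11, 11, 4, 20 and 17 reads. Its lower level on PD20 than on PD12 therefore cannot be told apart from this selection.

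Comparison of P with C on the same day asked whether the family differed with reproductive status. The paper describes reduced progesterone production by D16 of the cycle, and PD20 alone was sampled at implantation sites. The part of the conceptuses themselves therefore cannot be told apart from these differences. On D12, 1 member and 6.07% of all sequences had an unadjusted p under 0.05. This was miR-181a 5p of 22 nt, with a log2FC of 1.55 (SE 0.623, edgeR adjusted p = 0.678) on PD12 vs CD12, where the PD12 animals lay between 1.92 and 18.5 and the CD12 animals between 2.06 and 3.35 normalized reads. On D16, 1 member and 10.9% of all sequences did so, namely miR-181a-1 3p of 20 nt with a log2FC of 1.71 (SE 0.642, edgeR adjusted p = 0.378) on PD16 vs CD16. Without PD16 replicate 2 this was 0.95, and with the reads of all forms of the same name summed it was -0.15. The D16 groups did not overlap for the 21 nt form of miR-181d, as for 1.72% of all sequences. It had 2.53 ± 0.862 normalized reads on PD16 and 4.08 ± 0.589 on CD16, with a log2FC of -0.69 (SE 0.434, edgeR adjusted p = 0.604). The counts were 3 to 9 reads on PD16 and 8 to 13 on CD16. This form reached the authors' read minimum in CD12 and CD16 only, so its higher level on CD16 cannot be told apart from that selection.

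The largest P vs C log2FC of the family was on D20, once the conceptuses had attached. miR-181a-1 3p of 20 nt had between 6.71 and 27.01 normalized reads (median 17.8) on PD20, and 1.14, 1.76, 1.396, 7.80 and 9.52 on CD20. The groups overlapped through the PD20 animals at 6.71 and 8.72 and the CD20 animals at 7.80 and 9.52. The group mean was 17.1 ± 8.45 for pregnancy (n = 6) and 4.32 ± 4.01 for the cycle (n = 5). The fold fitted by edgeR was 4.05 (95% interval 1.70 to 9.67), with a log2FC of 2.02 (SE 0.594) and an edgeR adjusted p of 0.0630, so that it missed the threshold. Without PD20 replicate 1 the log2FC was 2.17 (edgeR adjusted p = 0.0772). The likelihood ratio test of edgeR and DESeq2 called it, with adjusted p values of 0.0179 and 0.0145, in a comparison in which they called 14.2% and 15% of all sequences. In all, 2 members had an unadjusted p under 0.05 on D20, against 28.5% of all sequences, the other being miR-181a 5p of 22 nt with a log2FC of 0.90 (SE 0.420, edgeR adjusted p = 0.168).

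The log2FC of the longer forms of miR-181a-1 3p on D20 was closer to 0. On PD20 vs CD20 it was 0.72 (SE 0.399) for the 21 nt form and 0.83 (SE 0.481) for the 22 nt form, with edgeR adjusted p values of 0.232 and 0.252. Without PD20 replicate 1 the 22 nt form had a log2FC of 0.50 (SE 0.455, edgeR adjusted p = 0.517). As a start, with all ends joined, miR-181a-1 3p had 92.6, 76.1, 86.5, 50.1, 72.9 and 72.0 normalized reads on PD20 and 11.5, 20.0, 47.5, 41.2 and 56.9 on CD20. Only the PD20 animal at 50.1 lay below the highest CD20 animal, and the log2FC without PD20 replicate 1 was 1.10 (edgeR adjusted p = 0.107). The fold was 2.12 (95% interval 1.21 to 3.73), the log2FC 1.08 (SE 0.383) and the edgeR adjusted p 0.0848, and DESeq2 called it with an adjusted p of 0.0297 among the 16% of starts it called. The other starts had a log2FC on PD20 vs CD20 of 0.17 (95% interval -0.54 to 0.88) for miR-181a 5p, 0.30 (-0.25 to 0.85) for miR-181b, -0.13 (-0.73 to 0.47) for miR-181d and -0.24 (-0.93 to 0.45) for miR-181c 3p. These intervals lie within a log2FC of 1 in either direction.

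**Figure D3:**
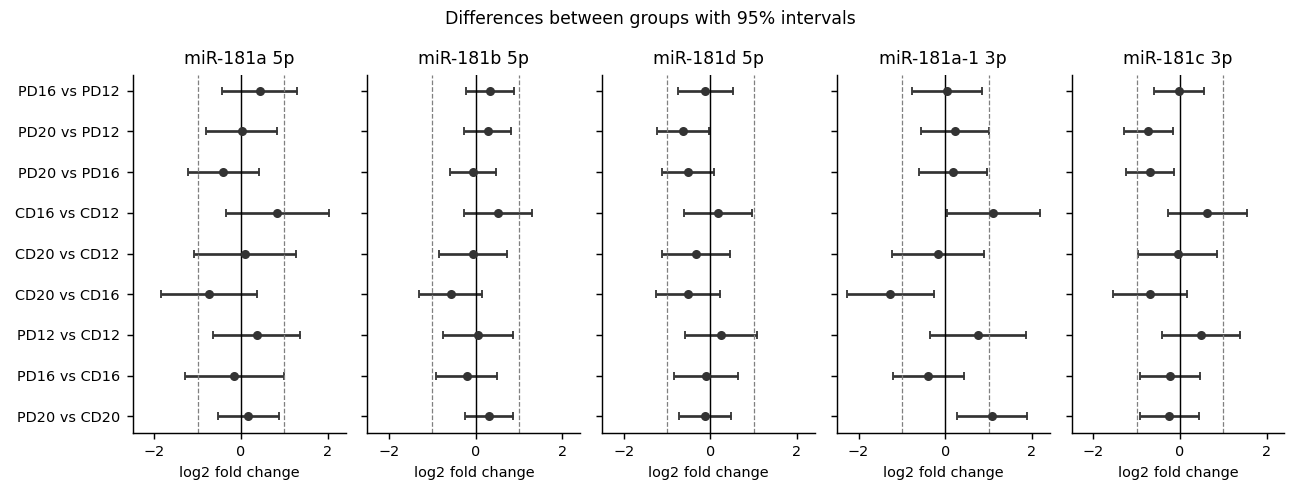
Log2 fold change (horizontal axis) of each miR-181 miRNA, all 3′ ends joined, in the 9 comparisons (vertical axis, first group over second), with the 95% interval of the edgeR fit as bars. Dashed lines mark a log2FC of -1 and 1, and the intervals that leave out 0 belong to miR-181c 3p on PD20 vs PD12 and PD20 vs PD16, to miR-181d on PD20 vs PD12, and to miR-181a-1 3p on CD16 vs CD12, CD20 vs CD16 and PD20 vs CD20, none of which passed the adjusted threshold.

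Whether the P vs C difference itself changed between days was tested as an interaction of status and day over all 30 libraries. No member or start passed an adjusted p of 0.05 in edgeR's F-test, whereas at an unadjusted p under 0.05 there were 2 such changes among the members and 1 among the starts. From D12 to D16 the difference for miR-181a 5p of 22 nt moved by -2.15 in log2 (SE 0.962, unadjusted p = 0.0325 and adjusted p = 0.576 in edgeR), from a P vs C log2FC of 1.55 on D12 to -0.64 on D16, a day whose cycle group holds replicate 5 at 62.6 normalized reads. From D16 to D20 it moved by -1.79 for miR-181d of 24 nt (SE 0.801, unadjusted p = 0.0328 and adjusted p = 0.209 in edgeR). Of all 873 sequences, 71 and 167 passed the unadjusted threshold in these contrasts. Among the starts, miR-181a-1 3p had the largest change from D16 to D20, where the log2 difference between P and C was greater by 1.38 (SE 0.614, unadjusted p = 0.0324 and adjusted p = 0.215 in edgeR), in a contrast in which 21 of the 324 starts passed the adjusted threshold and 63 the unadjusted. On this strand the P vs C log2FC was 0.75 on D12, -0.39 on D16 and 1.08 on D20.

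Length forms of the same strand were compared within each library, so that library scaling has no part. These ratios were chosen after the values had been seen. The 20 nt form of miR-181a-1 3p had fewer reads than the 22 nt form in every library except PD16 replicate 2, which had 77 reads of each, at a geometric mean ratio of 0.168 (range 0.0445 to 1, with 0.5 reads added to both). By group the ratio was 0.412 on PD20, 0.247 on PD16, 0.169 on CD20, 0.108 on PD12, 0.105 on CD12 and 0.0886 on CD16. Among the 9 comparisons tested, the largest difference in log2 ratio was 1.93 between PD20 and PD12 (two-sided exact permutation p = 0.0303, adjusted p = 0.214 over 18 tests). The 22 nt form of miR-181a 5p had a geometric mean ratio of 0.313 to the 23 nt form, and by group the ratio was 0.522 on PD20, 0.385 on CD16, 0.311 on PD16, 0.277 on PD12, 0.251 on CD20 and 0.175 on CD12. Among the same 9 comparisons, the largest difference in this ratio was 1.14 in log2 between CD16 and CD12 (two-sided exact permutation p = 0.214, adjusted p = 0.444). The ratio lay between 0.317 and 0.626 on PD20 and between 0.290 and 0.338 on PD16. The difference between these groups, 0.75 in log2 (two-sided exact permutation p = 0.00649, adjusted p = 0.117), had the smallest p of the 18, and none passed after adjustment.

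**Figure D4:**
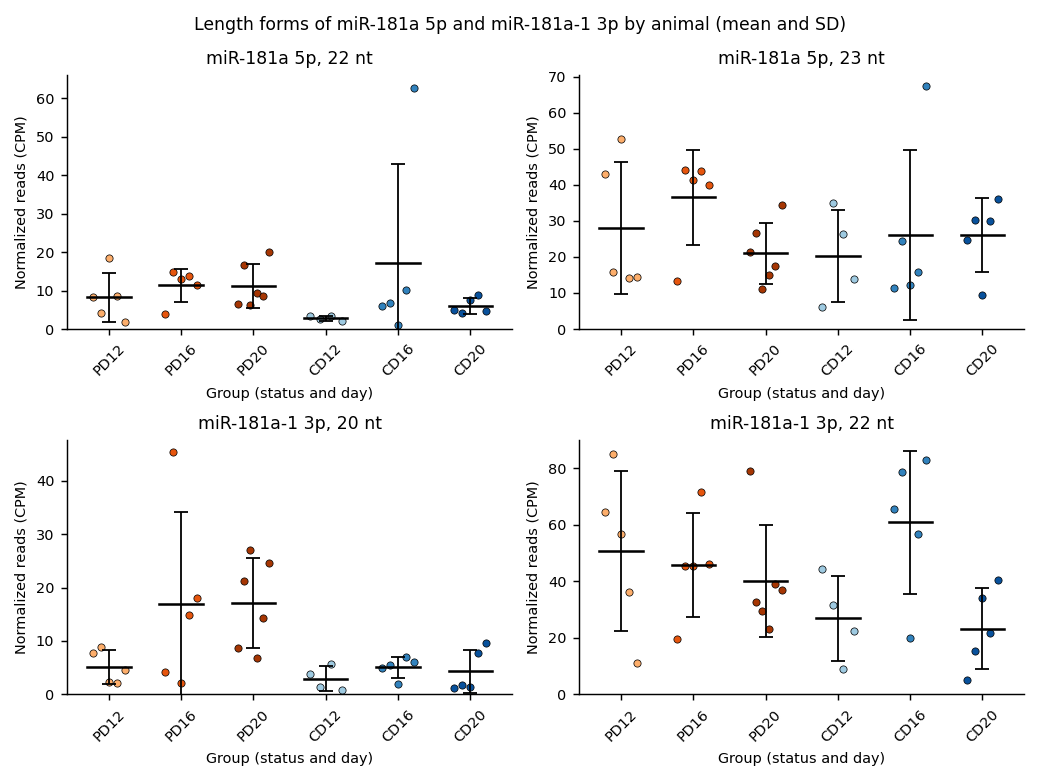
Normalized reads (vertical axis, CPM on the scale of annotated sequences) of the length forms of miR-181a 5p (upper panels) and miR-181a-1 3p (lower panels) in the 6 groups (horizontal axis). Points are animals, lines means and bars SD, cut at 0. The 20 nt form of miR-181a-1 3p has a mean of 17.1 on PD20 and 4.32 on CD20, and the 22 nt form of miR-181a 5p has 1 animal at 62.6 on CD16.

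The arms of the miR-181a hairpins were compared in the same way. Within a library the ratio of miR-181a 5p to miR-181a-1 3p reads, over all 3′ ends, had a geometric mean of 0.873 and ranged from 0.245 to 3.65, with more 5p than 3p reads in 12 of 30 libraries. It was 1.42 on CD20, 1.05 on CD12, 1.02 on PD16, 0.787 on PD12, 0.650 on CD16 and 0.632 on PD20. The difference between PD20 and CD20, -1.17 in log2, had a two-sided exact permutation p of 0.0563 (adjusted p = 0.506 over 18 tests). The range within a group was wide, from 0.245 to 3.11 among the 4 CD12 animals, and the groups overlapped in all 9 comparisons. Since the 5p reads fit both mir-181a hairpins and the 3p reads were named for mir-181a-1, the ratio joins arm and gene copy.

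The neighbours miR-181c and miR-181d had a narrower range of ratios. miR-181c 3p to miR-181d 5p reads had a geometric mean ratio of 1.00 and ranged from 0.434 to 1.59. The lowest p was that of CD16 vs CD12, where the log2 ratio differed by 0.49 (two-sided exact permutation p = 0.0317, adjusted p = 0.506). The smallest p that 5 against 4 animals allow is 0.00794. None of the 18 tests of these ratios passed after adjustment.

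**Figure D5:**
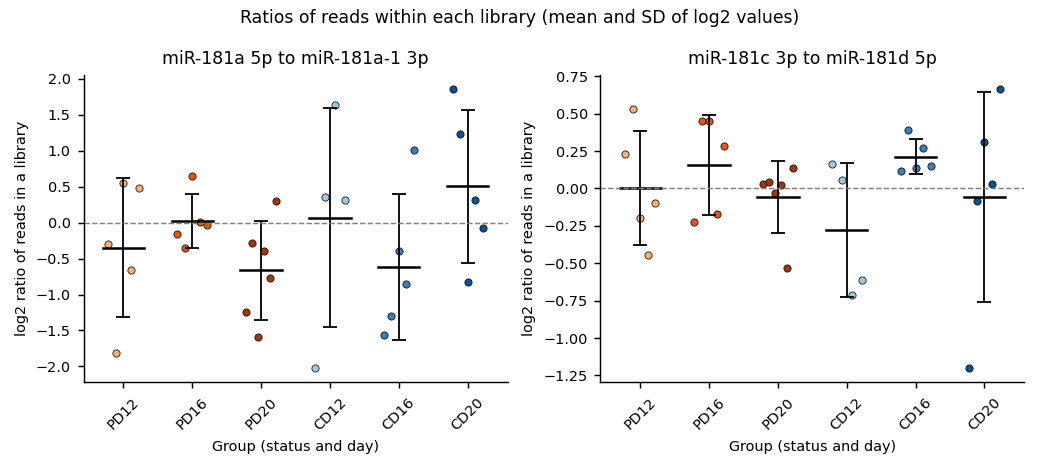
Log2 ratio of reads within each library (vertical axis) of miR-181a 5p to miR-181a-1 3p (left) and of miR-181c 3p to miR-181d 5p (right), in the 6 groups (horizontal axis). Points are animals, lines means and bars SD, and the dashed line marks equal reads. The vertical scales differ, and the ratio on the left spans 0.245 to 3.65 against 0.434 to 1.59 on the right.

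As a description over the 30 libraries, which share depth and scaling, log2 levels of the starts were most alike for miR-181c 3p and miR-181d 5p (Pearson r = 0.717), whose genes are neighbours. The next pairs were miR-181b 5p with miR-181a-1 3p (r = 0.672) and with miR-181a 5p (r = 0.646), of the mir-181a and mir-181b clusters. Pairs from different clusters were alike too, with r = 0.578 for miR-181c 3p and miR-181a-1 3p and 0.437 for miR-181b and miR-181c 3p. miR-181a 5p and miR-181a-1 3p had r = 0.293, and miR-181a 5p and miR-181d had r = 0.02. Within strands the forms also differed, with r = 0.762 between the 21 and 22 nt forms of miR-181a-1 3p but 0.343 between the 20 and 22 nt forms.

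Among the 545 annotated sequences outside the family with a mean of at least 10 normalized reads, those whose pattern over the 30 libraries was most like that of miR-181a 5p of 23 nt were all forms of miR-92a, a miRNA of the miR-17-92 cluster and its copy. Their Pearson r was 0.891 (23 nt), 0.881 (22 nt) and 0.855 (21 nt), while the median over the 545 was -0.01. For the 22 nt form of miR-92a, the Spearman rho was 0.867, r with each group's mean subtracted was 0.887, and r without the 2 libraries farthest from the median of miR-181a was 0.859. The pattern of miR-181a-1 3p of 22 nt was most like that of a 24 nt form of miR-183 (r = 0.775), a 24 nt form of miR-30d (r = 0.747) and a 23 nt form of miR-532 (r = 0.726), against a median of 0.03. Without the 2 libraries farthest from the median of miR-181a-1 3p these r values were 0.730, 0.681 and 0.572, and the Spearman rho was 0.733, 0.751 and 0.617. These sequences were picked as the most alike of 545, so no p is given.

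Marker miRNAs of the cells that the tissue can hold were summed to describe the samples. The epithelial list (miR-200a, miR-200b, miR-200c, miR-141, miR-429, miR-205 and miR-203, all 7 found, 47 sequences, led by miR-200c) was present in every library at 5061 to 17435 normalized reads. The leukocyte list, of the cells in which miR-181 is best known, had 4 of 5 miRNAs (13 sequences, led by miR-342, with miR-223 not among the annotated sequences) and summed to between 71.0 and 519 normalized reads. Its group means ran from 143.7 ± 56.9 on PD16 to 291 ± 159 on CD12, and it had 0 calls in edgeR's F-test in all 9 comparisons. At an unadjusted p under 0.05, 6 of its 13 sequences passed on CD20 vs CD16, all higher on CD20, against 21.2% of all sequences, with a median log2FC of 1.13 over the list and -0.03 over all sequences. In the joint test of the cycle 5 of the 13 passed, against 23.9% of all sequences, all of them higher on CD20 than on CD12 and 4 of them lower on CD16 than on CD12, with a median log2FC of 1.03 on CD20 vs CD12 over the list, although the summed level was higher on CD12 than on CD20 (241 ± 107.7). In the joint test of pregnancy 5 of the 13 passed, against 18.7% of all sequences, 2 of them higher and 3 lower on PD20 than on PD12, with a median log2FC of 0.79 over the list. On PD16 vs CD16, 4 of the 13 passed, 2 higher and 2 lower, against 10.9% of all sequences.

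The smooth muscle and stroma list (31 sequences, led by miR-143) had 1 call, higher on PD20 vs PD16. In that comparison 19 of its 31 sequences had an unadjusted p under 0.05, all higher on PD20, against 14.2% of all sequences, with a median log2FC of 1.20 over the list and -0.06 over all sequences. The 5 PD20 libraries other than replicate 1 summed to between 76379 and 138140 normalized reads, and the PD16 libraries to between 64729 and 94522. In the joint test of pregnancy 11 of the 31 passed, against 18.7% of all sequences, and all 11 were higher on PD20 than on PD12, with a median log2FC of 0.75 over the list and -0.01 over all sequences. On PD16 vs CD16, 12 of the 31 passed, all lower on PD16, against 10.9% of all sequences. On PD20 vs CD20, 7 of the 31 passed, all higher on PD20, against 28.5% of all sequences. The median log2FC there was 0.89 over the list and -0.03 over all sequences. The CD20 libraries summed to between 77902 and 128320 normalized reads and the PD12 libraries to between 77173 and 133890. Both ranges overlap that of the PD20 libraries other than replicate 1. The muscle list (3 of 5 found, 8 sequences, led by miR-1, with miR-133 and miR-208 not among the annotated sequences) had 0 calls in edgeR's F-test. On PD20 vs PD16 and also on PD20 vs CD20, 5 of its 8 sequences passed at an unadjusted p under 0.05, all higher on PD20, against 14.2% and 28.5% of all sequences. The median log2FC over the muscle list was 2.21 and 1.77 in these comparisons. PD20 replicate 1 summed to 40186 normalized reads of this list, and the other PD20 libraries to between 1416 and 8098. The PD16 libraries had between 1139 and 4001, the CD20 libraries between 1111 and 8771, and the PD12 libraries between 1175 and 8241. In the joint test of pregnancy 5 of the 8 passed, against 18.7%, and these were higher on PD20 and lower on PD16 than on PD12, with a median log2FC of 1.64 on PD20 vs PD12 over the list. On PD16 vs CD16, 4 of the 8 passed, all lower on PD16, against 10.9%, with a median log2FC of -1.21 over the list. CD16 replicate 5 summed to 16765 normalized reads, whereas the other CD16 libraries, at 2035 to 3392, lay within the range of the PD16 libraries. The erythrocyte list (3 of 3 found, 16 sequences, led by miR-451) summed to 2190 ± 1177 for PD20 and 1076 ± 618 for CD20, with 0 calls in edgeR's F-test and 6 of 16 sequences at an unadjusted p under 0.05 on PD20 vs CD20, all higher on PD20, against the same 28.5%. The endothelial marker miR-126 (17 sequences) summed to 3913 ± 606 on PD20 and 4604 ± 293 on CD20 with 0 calls, and 7 of the 17 passed the unadjusted threshold on CD20 vs CD16, all higher on CD20, against 21.2% of all sequences. Of the epithelial list 3 sequences were called, lower on PD20 vs CD20, where 1.49% of all sequences were called. In that comparison 17 of the 47 passed the unadjusted threshold, 8 higher and 9 lower, against 28.5% of all sequences. The list's median log2FC there was 0.31, and its sum was 11744 ± 3183 on PD20 and 8377 ± 2216 on CD20. In the joint test of pregnancy 11 of the 47 passed, against 18.7% of all sequences. Of these, 1 was higher and 10 were lower on PD20 than on PD12, and likewise on PD16. The median log2FC over the epithelial list was -0.44 on PD20 vs PD12 and -0.43 on PD16 vs PD12, against -0.01 and 0.05 over all sequences. Its sum on PD12 was 12606 ± 2890. The part of these cells in the levels of miR-181 was not tested.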

How the data were processed

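The authors deposited, for each of the 30 libraries, raw counts per distinct read sequence, made by them through adapter removal, filtering on quality, removal of reads under 17 nt and joining of repeated sequencing runs. Libraries were made with a NEXTflex small RNA kit and pooled for sequencing (which library was in which pool was not used here). The annotation, made by the authors by BLAST with full identity against miRBase and other databases, was taken from their supplementary list of sequences and names. It was limited by them to sequences that reached a read minimum in most samples of at least 1 group. Porcine genome build Sscrofa10.2 was used by the authors, and no coordinates are given here.

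Counts of the 873 sequences were scaled by TMM and fitted in edgeR 4.0.16 (R 4.3.3) with a prior count of 0.125. Within P and within C, 1 mean per day was fitted, and P vs C was fitted for each day alone. The SE was taken as the absolute log2FC over the root of the F statistic. A further table summed all deposited reads by their first 17 bases. The fits were tested on simulated counts with known changes. Ratios within a library were compared by a two-sided exact permutation test in Python 3.11.15. DESeq2 1.42.0, the likelihood ratio test, RLE scaling, all deposited reads as library size, a minimum mean of 10 CPM, 1 fit of all libraries, sums by name, the replicate number as a block and each library left out were alternatives. Each library came from a different animal, so p-values measure the spread between animals. The members and the lists of marker miRNAs were chosen with earlier results of these data known. Values per animal are given for the most abundant form of each start and for forms with an unadjusted p under 0.05, and look-alikes are the 3 sequences with the highest Pearson r of log2(CPM + 1). Fold changes and p-values of the authors were not used.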

Additional observations from a re-analysis of the deposited data

Results flagged for a closer look

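A single animal stood far from the others of its group, by Dixon's criterion at 95%, in 11 of the 96 combinations of group with member or start that were tested. The nominal rate of about 1 in 20 assumes normal and independent values. The combinations reuse the same libraries, and the starts contain the members, so the count cannot be set against that rate. CD16 replicate 5 did so for miR-181a 5p, with 62.6 normalized reads of the 22 nt form against 0.944 to 10.2 in the other animals, 67.4 of the 23 nt form against 11.3 to 24.4, and 192.0 with all 3′ ends joined against 23.2 to 45.2. This library had 16765 normalized reads of the muscle list, against 2035 to 3392 in the other CD16 libraries. PD20 replicate 1, the library with 636000 normalized reads of miR-143 and miR-145 sequences, did so for miR-181a-1 3p of 22 nt (78.9 against 23.2 to 39.1), miR-181c 3p of 21 nt (8.02 against 3.20 to 4.73) and miR-181d of 24 nt (5.23 against 0 to 1.77). PD16 replicate 5 did so for miR-181b (16.7 against 10.6 to 11.4) and miR-181c 3p of 21 nt (11.4 against 5.31 to 5.68). The others were miR-181a 5p of 23 nt in PD16 replicate 1, which was low at 13.3 against 40.0 to 44.2, miR-181b in PD12 replicate 1 (16.6 against 5.77 to 8.78) and miR-181c 3p of 22 nt in PD12 replicate 2 (26.1 against 9.70 to 13.9). Several of these rest on fewer than 40 reads, such as 15 reads of miR-181d of 24 nt and 35 reads of miR-181a 5p of 23 nt in PD16 replicate 1.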

How the results depend on the processing

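Of 496 alternative counts of called members or starts, 481 were 0 as in the report. A single member was called (1 instead of 0) by the likelihood ratio test, by DESeq2 and in 1 fit of all 30 libraries on CD16 vs CD12 and also CD20 vs CD12 (in both miR-181a 5p of 22 nt, by the joint test of the cycle) and on PD20 vs CD20 (miR-181a-1 3p of 20 nt), and DESeq2 called 1 start (miR-181a-1 3p) on PD20 vs CD20. With each library left out in turn, the counts ranged from 0 to 1 on CD16 vs CD12, where leaving out CD16 replicate 3 gave a log2FC of 3.00 for miR-181a 5p of 22 nt, and from 0 to 1 on PD20 vs CD20, where leaving out PD20 replicate 4, CD20 replicate 4 or CD20 replicate 5 gave 2.19, 2.33 and 2.55 for miR-181a-1 3p of 20 nt. For the starts on PD20 vs CD20 they ranged from 0 to 1, with 1.32 for miR-181a-1 3p without CD20 replicate 5. The direction turned in 3 values that exceeded their SE in the report, and none of the 3 exceeded it after turning: miR-181a-1 3p of 20 nt on PD16 vs CD16 was -0.15 with isomiRs summed by name, against 1.71, and the miR-181a 5p start without CD16 replicate 5 was -0.17 on CD16 vs CD12 and 0.27 on CD20 vs CD16, against 0.84 and -0.74, with ranges over all libraries left out of -0.17 to 1.11 and -0.96 to 0.27. The cause was not tested beyond the sums and omissions named. Of 1604 alternative log2FC values 1479 kept direction and side, and 107 changed sign where the reported value did not exceed its SE. All 414 alternative ratio differences stayed on their side of the threshold. With all deposited reads as library size, the median log2FC of all sequences moved from 0.09 to 0.47 on CD20 vs CD12 and from -0.03 to -0.27 on PD20 vs CD20. The minimum mean of 10 CPM left out the members below it, which then have no value. With the replicate number as a block, 0 members and 0 starts were called in all comparisons, and miR-181a-1 3p of 20 nt on PD20 vs CD20 had a log2FC of 2.12 (edgeR adjusted p = 0.254). The numbers do not pair the animals: deviations from the group means correlated at a median r of -0.04 over 70 same-numbered pairs, and at 0.00 over the 304 others. Depth limits the low forms most, with medians of 8.5 and 8 reads per library for miR-181d of 21 and 24 nt.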
